A study of Mus musculus with 6 samples.

Results

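Predicted candidates are small RNAs that the authors' tables list under a code starting with PC instead of a miRNA name. They were chosen here by that name alone, which gave 122 of 1080 entries. Entries with identical values in all 6 libraries were counted once, which left 85 candidates among 1009 entries. Each candidate code occurs once, and equal low values do not show that 2 codes stand for the same sequence, so values over all 122 are given as well where the merging moves them. Small RNA was sequenced in N2A cells (also called Neuro2A), a mouse neuroblastoma line labelled as neuroblast, brain and neuroblastoma. The 6 libraries comprise 3 controls, from cells that received the siRNA si-NC, and 3 from cells that received si-circCpsf6, an siRNA named after the circular RNA circCpsf6. Values are given below in the order of replicates 1, 2 and 3. Both siRNAs were used at 100 nM on cells grown in DMEM with fetal bovine serum and antibiotics. The comparison asks how the small RNA profile differs when circCpsf6 is targeted, and the level of circCpsf6 was not analysed here. The labels do not state whether replicates were separate cultures, so the spread behind each p-value may be technical.

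A miRNA is cut from a hairpin transcript, first by Drosha in the nucleus and then by Dicer in the cytoplasm, and one strand is loaded into an Argonaute protein that it guides to mRNAs. The tags 5p and 3p name the arm of the hairpin from which the mature strand comes. A sequenced small RNA without a miRNA name can be a miRNA absent from the reference set or a fragment of another RNA. Telling these apart usually takes reads from both arms, precise ends, and loss of the RNA without Dicer or Drosha. Sequence, length, base composition and genome position of the candidates were not analysed here, so the results below rest on names and levels.

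The values are the authors' normalized read numbers. They summed to between 2570449 and 3268351 per library over all entries, and the depth is unknown, since normalization removed it. The neuronal miR-124-3p, miR-9-5p, miR-218-5p and miR-7a-5p and the neuroendocrine miR-375-3p were above 0 in every library, at between 83 (miR-9-5p) and 364458 (miR-7a-5p). The liver miRNA miR-122-5p stayed between 0 and 5, the red cell miRNA miR-451a between 0 and 17, and the muscle miRNAs miR-1a-3p and miR-133a-3p between 6 and 112. The library si-NC replicate 3 stood apart, with fewer entries above 0 than any other library in each class of entry.

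The candidates made up a small part of the profile. Their values summed to 4255, 4593 and 5592 in the controls and to 2515, 4166 and 4174 under si-circCpsf6. As a share of each library this was 0.140%, 0.157% and 0.218% in the controls and 0.0875%, 0.127% and 0.145% under si-circCpsf6. The shares of the groups overlapped, with means of 0.171 ± 0.0409% for controls and 0.120 ± 0.0294% for si-circCpsf6 (all errors are SDs over the 3 libraries of a group). The difference of -0.051 percentage points was -0.028 without si-NC replicate 3, and it stayed below 0 whichever library was left out. The median candidate had a mean of 3.67 normalized reads over the 6 libraries, against 6.92 for the 184 entries named after miRNAs of other species and 72.2 for the 740 named after mouse miRNAs. A mean of 10 or more was reached by 21 candidates (24.7%), against 44.0% of the entries named after other species and 70.4% of the mouse entries. With identical rows kept apart in every class, the median of these means was 1.58 for the 122 candidates, 6.83 for 204 entries named after other species and 73.2 for 754 mouse entries, and 17.2%, 43.6% and 70.7% of them averaged 10 or more. In the expression classes of the authors' deposited table, 81 of the 122 candidates were low, 41 were middle and 0 were high, whereas 123 of the 1080 entries were high.

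A few candidates held most of the summed value. The 3 with the highest mean, PC-5p-748_4516, PC-3p-798_4100 and PC-5p-1723_1380, supplied the highest candidate value of every library, and the 3 highest in each library held between 60.7% (si-circCpsf6 replicate 3) and 78.2% (si-NC replicate 3) of the candidates' sum. Each of the 10 with the highest mean was above 0 in all 6 libraries. Without those 10, the remaining candidates summed to 412, 498 and 295 in the controls and to 337, 564 and 478 under si-circCpsf6.

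PC-5p-748_4516, a 5p entry and the candidate of highest mean, was listed at 1471, 1260 and 814 in the controls and at 547, 1647 and 1007 under si-circCpsf6. Its groups overlapped fully, and the lowest and the highest value were both in si-circCpsf6. PC-3p-798_4100 stood at 1230, 1357 and 208 in the controls and at 524, 692 and 381 under si-circCpsf6. The first and second si-NC libraries lay above all others and si-NC replicate 3 below all others. Its log2 change, taken as si-circCpsf6 against si-NC on the log2(value + 1) scale, was -0.44 (SE 0.69), and it became -1.32 when si-NC replicate 3 was left out and 0.030 when si-NC replicate 2 was. PC-3p-2705_755 varied less between libraries, at 506, 735 and 672 in the controls and at 508, 643 and 475 under si-circCpsf6.

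PC-5p-1723_1380 differed most between libraries of one group. It was listed at 43, 47 and 2887 in the controls and at 153, 53 and 1050 under si-circCpsf6, so that each group had 1 library far above its others. The means were 992 in the controls and 419 under si-circCpsf6, while the log2 change had the opposite sign (0.17, SE 1.68). Leaving out si-NC replicate 3 gave 2.16, and leaving out si-circCpsf6 replicate 3 gave -1.003. PC-5p-3070_648 followed the same order at its upper end, at 68, 89 and 351 in the controls and at 97, 123 and 258 under si-circCpsf6. PC-3p-16148_63, a weaker candidate singled out after its values were seen, was at 0, 0 and 46 in the controls and at 12, 7 and 40 under si-circCpsf6. For these 3 candidates si-NC replicate 3 was highest, followed by si-circCpsf6 replicate 3 and then si-circCpsf6 replicate 1 or 2.

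The rest of the 10 ranged from 18 to 209 in single libraries. PC-3p-2350_929 was at 187, 153 and 54 in the controls and at 119, 209 and 106 under si-circCpsf6, and its log2 change of 0.25 was -0.29 without si-NC replicate 3. PC-3p-3232_602 was at 82, 128 and 89 and at 64, 99 and 88. PC-3p-5647_273 was at 98, 125 and 73 and at 52, 18 and 170, the widest spread of these within si-circCpsf6. PC-3p-5967_253 was at 50, 109 and 37 and at 62, 67 and 102. The groups overlapped for each of these 4. The log2 change of PC-3p-5647_273 was -0.81 (SE 0.80), and it became -0.032 without si-circCpsf6 replicate 2, where it was lowest, and -1.62 without si-circCpsf6 replicate 3, where it was highest.

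**Figure D1:**
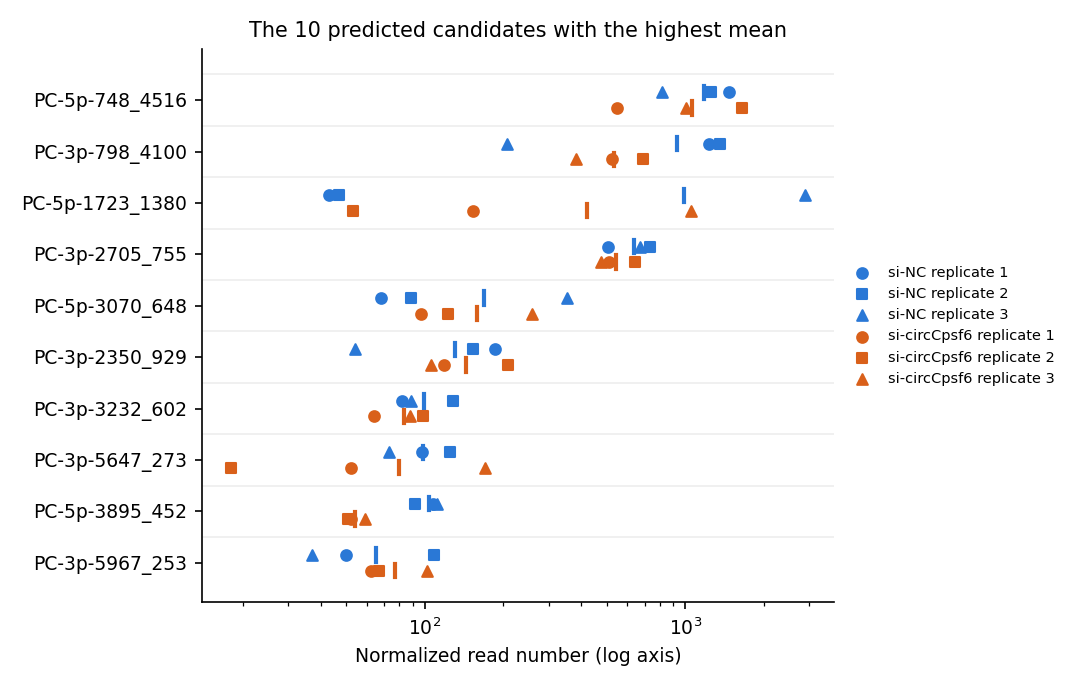
Normalized read number (log axis) of the 10 candidates with the highest mean, by library. Points are libraries, colour gives the group, shape the replicate, and short bars the group means. PC-5p-1723_1380 spans 43 to 2887, whereas PC-5p-3895_452 is the one whose groups do not overlap.

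Most candidates carried a 3p tag, 89 of the 122 entries and 62 of the 85 counted, the others a 5p tag. The 10 of highest mean held 4 with a 5p tag and 6 with a 3p tag. By summed value the 5p candidates held 42.3%, 35.5% and 75.1% of the candidates' sum in the controls and 37.1%, 49.0% and 59.2% under si-circCpsf6, and the 75.1% was in si-NC replicate 3, where PC-5p-1723_1380 alone stood at 2887 of 5592. The files do not say which candidates come from the same hairpin. PC-5p-3895_452 and PC-3p-3900_452 have close codes that end in the same number. Across candidates the earlier number followed the order of the last one, as described below, so close codes do not show a shared hairpin. PC-3p-3900_452 was at 65, 95 and 73 in the controls and at 32, 70 and 59 under si-circCpsf6, with overlapping groups.

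Candidates were listed above 0 less widely than named entries. Only 12 of 85 candidates (14.1%) were above 0 in all 6 libraries, against 52 of 184 entries named after other species (28.3%) and 450 of 740 mouse entries (60.8%). At the other end, 17 of 85 candidates were above 0 in a single library, against 14.1% of entries named after other species and 10.7% of mouse entries. Without merging identical rows, 54 of 122 candidates (44.3%) were above 0 in a single library, against 13.2% and 10.5% of those classes, and 12 (9.84%) were above 0 in all 6 libraries, against 28.4% and 61.3%. The 48 candidates that shared their values with another candidate were all among these, in 11 sets of up to 10. No test was made of this difference, and the candidates also had lower means.

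The number of candidates above 0 was 54, 49 and 19 in the controls and 44, 65 and 41 under si-circCpsf6. The mean difference was 9.33 candidates, but -1.50 without si-NC replicate 3 and 1.83 without si-circCpsf6 replicate 2, the library with the most. Without merging, the numbers were 63, 61 and 19 in the controls and 46, 77 and 43 under si-circCpsf6, a mean difference of 7.67. Named entries were fewer in si-NC replicate 3 too. In si-NC replicate 3, 22.4% of candidates, 35.3% of entries named after other species and 64.1% of mouse entries were above 0, whereas in the other 5 libraries these shares ran from 48.2% to 76.5%, from 62.0% to 74.5% and from 75.7% to 86.6%. Counting values of 10 or more instead, the candidates numbered 22, 30 and 19 in the controls and 19, 24 and 20 under si-circCpsf6. The lowest candidate value in si-NC replicate 3 was itself 10, so its 19 could not drop. These counts therefore do not show whether that library stood apart.

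**Figure D2:**
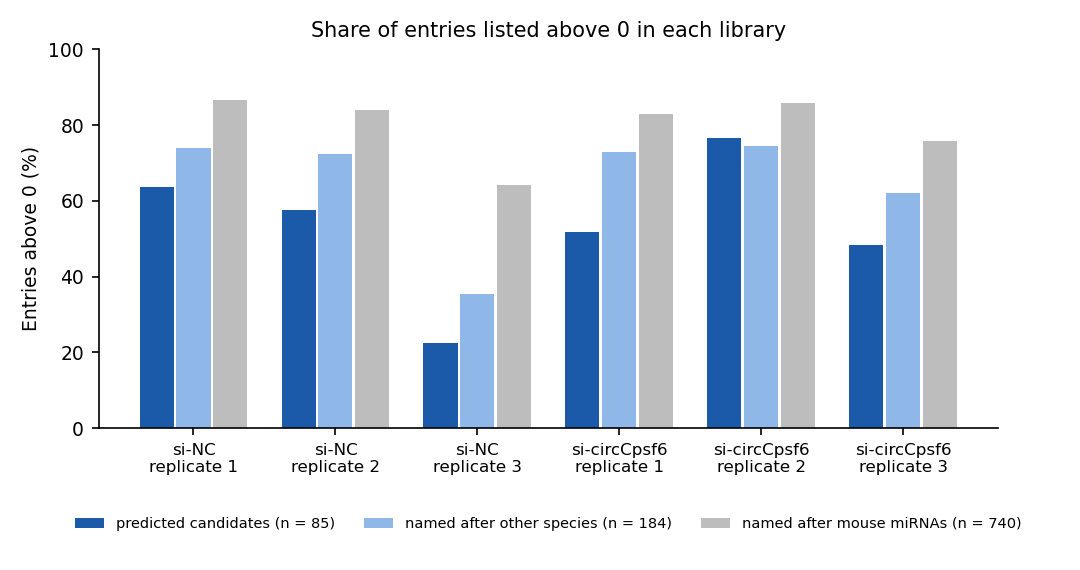
Percentage of entries above 0 in each library, for predicted candidates, entries named after other species and entries named after mouse miRNAs. In si-NC replicate 3 the candidates reach 22.4%, below every other bar.

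The lowest value above 0 of any candidate was 10 in si-NC replicate 3 and 2 or 3 in the other libraries. For named entries in si-NC replicate 3 it was 10 for those named after other species and 2 for mouse entries. Of the 85 candidates, 46 never reached 10 in the other 5 libraries, and 5 of those were above 0 in si-NC replicate 3. Of the 39 that did reach 10 elsewhere, 14 were above 0 in si-NC replicate 3 and 25 were at 0. Of 21 candidates above 0 in each of the other 5 libraries, 9 were at 0 in si-NC replicate 3. Of the 19 candidates above 0 in si-NC replicate 3, 9 had their highest value in that library and 3 their lowest. For the 5 that never reached 10 elsewhere this was fixed in advance, since no candidate was listed there under 10. In si-NC replicates 1 and 2, 12 of 54 and 19 of 49 listed candidates were highest. In si-circCpsf6 these were 7 of 44, 19 of 65 and 13 of 41.

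The codes themselves hold a number that moves with the level. Each code ends in a number, from 5 to 4516 over the 122 candidates with a median of 11.5, and the labels do not say what it is. When the candidates were put in order of the earlier number in the code, the last number never rose from one to the next (121 of 121 steps). Across the 122 candidates the last number and the mean value had a Spearman rho of 0.943, given as a description since all points come from the same 6 libraries. The number 5 was the lowest and occurred in 25 candidates.

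For the 54 candidates above 0 in a single library, the value divided by the last number took a near constant level in each library. Its median was 0.625 over 14 candidates in si-NC replicate 1 and 0.8 over 14 in si-NC replicate 2. In si-circCpsf6 it was 0.707 over 6 candidates in replicate 1, 0.667 over 16 in replicate 2 and 1.2 over 3 in replicate 3. In si-NC replicate 3 a single candidate, PC-3p-53937_7, gave 27 normalized reads for the number 7, or 3.86. A few candidates lay away from these levels, the highest ratio being 1.33 in si-NC replicate 1 (PC-3p-42418_12, at 16) and 1.17 in si-circCpsf6 replicate 2 (PC-3p-56495_6, at 7). For the 68 candidates above 0 in more than 1 library, the values divided by these medians and summed came to a median of 1.14 times the last number, and lay within a factor of 1.5 of it for 44. The ratio was highest in si-NC replicate 3, where it rests on that single candidate, and next in si-circCpsf6 replicate 3. Those are the libraries where PC-5p-1723_1380, PC-5p-3070_648 and PC-3p-16148_63, set together for that order, were highest. Others went the other way, as PC-3p-798_4100 (208), PC-3p-2350_929 (54) and PC-3p-5967_253 (37) were lowest in si-NC replicate 3. Of the 19 candidates above 0 in si-NC replicate 3, 9 were highest there and 3 lowest. The part of this ratio in the values of any of these candidates was not tested.

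**Figure D3:**
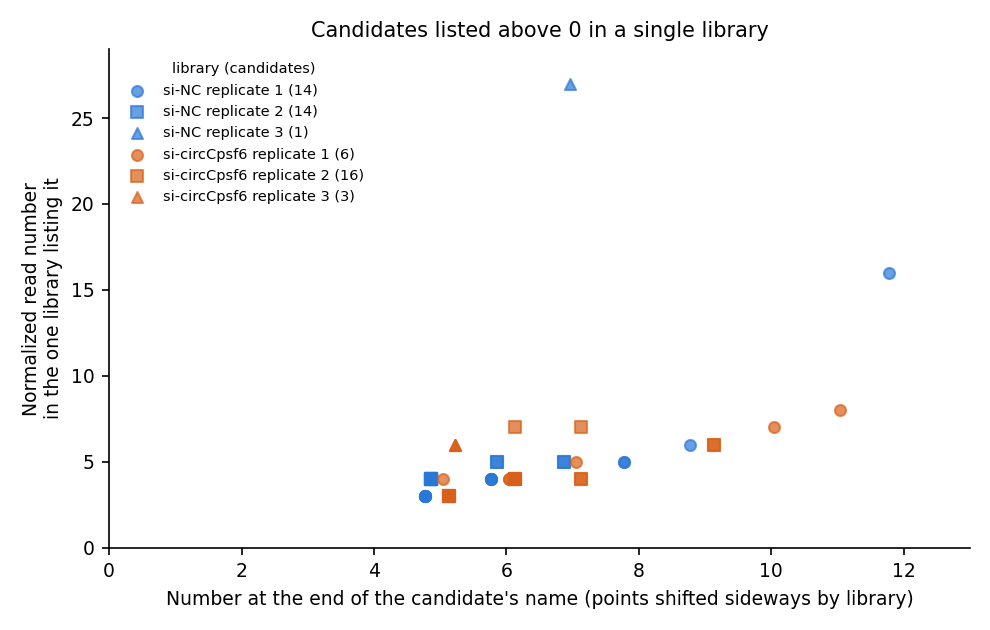
Normalized read number against the number that ends the candidate's name, for the 54 candidates above 0 in a single library. Colour gives the group and shape the replicate, and points are shifted sideways by library so that they can be seen. The one candidate of si-NC replicate 3 lies at 27, whereas candidates with the number 7 in other libraries lie between 4 and 7.

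Between si-NC and si-circCpsf6, no candidate passed the test across all entries. Of the 85 candidates, 74 averaged 1 or more over the libraries and were tested together with 838 named entries, and 11 were not. By limma on log2(value + 1) with Benjamini-Hochberg adjustment, 0 of 74 candidates and 0 of 912 entries (0%) had an adjusted p under 0.05. An unadjusted p under 0.05 was reached by 2 candidates (2.70%), against 57 of 912 entries (6.25%). Both were higher in si-circCpsf6, a direction in which 3.29% of all entries reached it, and 0 candidates were lower, against 2.96% of all entries. The count of 2 became 10 without si-NC replicate 3, 7 without si-circCpsf6 replicate 1 and 5 without si-circCpsf6 replicate 3. The shares of all entries tested with an unadjusted p under 0.05 were then 13.9%, 6.29% and 5.16%. The filter was applied again to the libraries kept, and the number of candidates tested in each case was not tallied. These counts are therefore not read as a result about candidates. A log2 change above 0 was found for 41 candidates (55.4%), against 55.5% of all entries, and the median log2 change was 0.17 for candidates and 0.079 for all entries. That median was -0.35 without si-NC replicate 3, which has the fewest candidates above 0, and -0.30 without si-circCpsf6 replicate 2, which has the most. Of the tested candidates 52 were above 0 in both groups, 15 were at 0 in every si-NC library and 7 at 0 in every si-circCpsf6 library, and the latter 22 passed the filter through one group alone. Over all 122 candidates, tested or not and without merging, 35 were at 0 in every si-NC library and 33 in every si-circCpsf6 library. Over all 1080 entries these numbers were 122 and 103.

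PC-3p-14533_73 was the candidate, and the entry, of smallest p. It was at 0 in all 3 controls and at 50, 47 and 76 under si-circCpsf6 (57.7 ± 15.9). The si-circCpsf6 values were all well above the lowest candidate values listed in those libraries, which were 2 or 3. Its sequence was not analysed here, so whether it comes from RNA of the cells or from the transfected siRNA was not tested, and the same holds for PC-3p-11918_97 below. Its unadjusted p was 9.92e-05 and its adjusted p 0.0905 by limma. The adjusted p was 0.0389 without si-NC replicate 3 and ran from 0.00174 to 0.628 over all alternatives. No fold is given against a group listed at 0, and the fitted log2 change followed the pseudocount, at 5.84 with 1, 9.14 with 0.1 and lower with a floor of 20 (1.45). With all libraries kept, it passed with array weights per library and under no other alternative.

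PC-3p-11918_97 had the same arrangement at lower and more uneven levels. The controls were at 0, and the si-circCpsf6 libraries at 30, 9 and 66 (35 ± 28.8). Its unadjusted p was 0.00135 and its adjusted p 0.265 by limma, with a range over all alternatives of 0.0175 to 1. The value of 9 in si-circCpsf6 replicate 2 was near the median of the candidates listed in that library, which was 7. The arrangement of 0 in every si-NC library and above 0 in every si-circCpsf6 library was found for these 2 candidates (2.70%) and for 10 of 912 entries (1.1%). The opposite arrangement was found for 0 candidates and for 1 entry (0.11%).

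Groups without overlap were found for 5 of 74 candidates (6.76%), against 107 of 912 entries (11.7%). Higher in si-circCpsf6 were 3 (4.05%, against 6.8% of all entries), namely the pair just described and PC-5p-27557_28, and lower were PC-5p-3895_452 and PC-3p-21203_42 (2.70%, against 4.93%). PC-5p-3895_452 was the most abundant of the 5 and the tightest. It was at 108, 92 and 112 in the controls (104 ± 10.6) and at 52, 51 and 59 under si-circCpsf6 (54 ± 4.36), or 51.9% of the control mean. Every control lay above every si-circCpsf6 library by more than the range within either group. Its log2 change was -0.93 (SE 0.47, adjusted p = 0.730 by limma), and it stayed between -1.02 and -0.88 over the alternatives, with adjusted p-values of 0.148 to 0.981.

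PC-3p-21203_42 was at 18, 27 and 27 in the controls (24 ± 5.20) and at 0, 9 and 9 under si-circCpsf6 (6 ± 5.20). Its si-circCpsf6 values all lay under its lowest si-NC value, and its log2 change of -2.41 (SE 1.11, adjusted p = 0.730 by limma) includes 1 library at 0. PC-5p-27557_28 was at 3, 0 and 0 in the controls and at 4, 6 and 9 under si-circCpsf6, a difference of a few normalized reads (log2 change 2.15, SE 0.98, adjusted p = 0.730 by limma). PC-3p-21203_42 and PC-5p-27557_28 fell outside the rule for named candidates and were singled out after their values were seen. In the authors' deposited table, 4 of 122 candidates (3.28%) had a p under 0.05, against 40 of 1080 entries (3.70%). These were PC-5p-3895_452 (0.00671), PC-3p-21203_42 (0.0153), PC-3p-14533_73 (0.025) and PC-5p-27557_28 (0.047), and the same table gives 0.17 for PC-3p-11918_97.

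**Figure D4:**
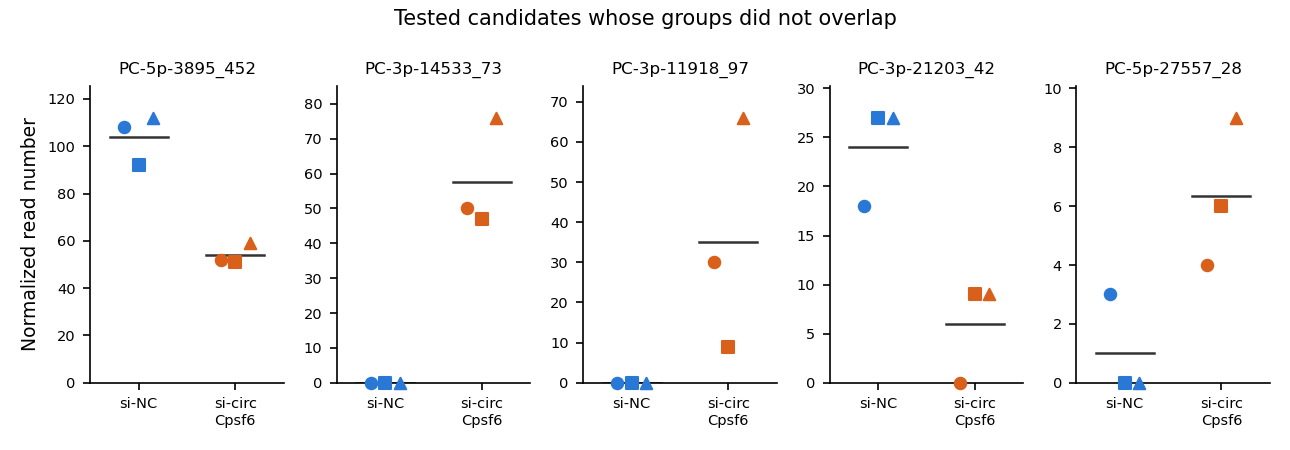
Normalized read number of the 5 tested candidates whose groups did not overlap, each on its own axis starting at 0. Points are libraries (circle, square and triangle for replicates 1, 2 and 3) and lines are group means. PC-3p-14533_73 and PC-3p-11918_97 lie at 0 in all si-NC libraries, whereas PC-5p-3895_452 is above 0 in every library.

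Several weak candidates were at 0 throughout one group. At 0 in every si-NC library and above 0 in at least 2 si-circCpsf6 libraries were 10 candidates (13.5%), against 35 of 912 entries (3.84%). Apart from the 2 above 0 in all 3 si-circCpsf6 libraries, the highest was PC-3p-40382_13, at 0, 12 and 7. Among the others were PC-3p-36223_17 (6, 6 and 0) and PC-3p-35194_18 (5, 7 and 0). In the other direction, PC-3p-41624_13 (4, 10 and 0 in si-NC), PC-3p-44549_11 (7, 5 and 0), PC-3p-39942_14 (5, 5 and 0) and PC-3p-52351_7 (3, 5 and 0) were above 0 in si-NC replicates 1 and 2 and at 0 in every si-circCpsf6 library. These were 4 of 74 candidates (5.41%), against 21 of 912 entries (2.3%), and each was at 0 in si-NC replicate 3. These 7 weak candidates were singled out after their values were seen. Over the 20 tested candidates at 0 in one group, leaving out the same pair, no group mean exceeded 9. All of them passed the filter through 1 group alone. In si-NC replicate 3 only 22.4% of candidates were above 0 and none was listed under 10, so a 0 there was common among weak candidates. Candidates also had lower means than other entries. The part of either in these shares was not tested, so the shares are not read as a result about candidates.

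**Figure D5:**
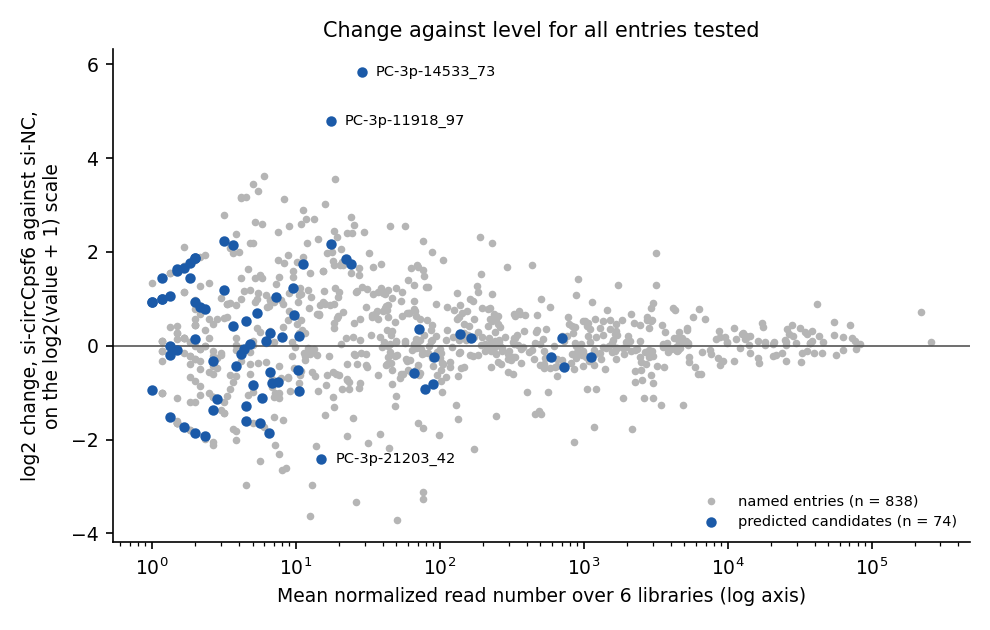
log2 change of si-circCpsf6 against si-NC (log2(value + 1) scale) against the mean normalized read number over 6 libraries (log axis), for 74 candidates and 838 named entries. PC-3p-14533_73 (5.84) and PC-3p-11918_97 (4.78) lie above the other candidates, of which the next highest is PC-3p-40382_13 (2.23).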

How the data were processed

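Libraries were grouped by their titles. Column values are the authors' normalized read numbers, deposited as whole numbers and treated as a score per the file headers, so no count test was used. The authors' deposited p-values come from a t-test per the file headers. Per the submitters' processing notes the build was mm9. Aligner, counting, prediction and normalization are not given in the sources used. The members and lists were chosen with earlier results of these data known.

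Identical rows were counted once. Among candidates any repeated set of 6 values was merged. Named entries were merged if above 0 in at least 3 libraries or equal in name apart from the suffix. Entries averaging 1 or more were transformed as log2(value + 1) and compared between the groups with limma (version 3.58.1, R version 4.3.3), using a variance trend, no covariate, and p-values adjusted by Benjamini-Hochberg with a threshold of 0.05. The fit was also run on simulated data, and the results above do not rest on that run. Named candidates were those with an unadjusted p under 0.05, the 10 of highest mean, and those at 0 in one whole group and above 0 in every library of the other. Alternatives changed pseudocount, filter, scaling, weights, variance, merging, libraries and the replicate block. Other steps ran in Python 3.11.15 with pandas 2.3.3, scipy 1.17.1, matplotlib 3.10.9 and numpy 2.4.6. The planned rule on length and base composition was not applied.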

Additional observations from a re-analysis of the deposited data

How the results depend on the processing

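Over 17 alternatives, 12 named candidates gave 204 log2 changes, of which 190 kept direction and side of the threshold, 3 passed it and 11 were in the opposite direction. With 1 library left out, 0 to 4 entries and 0 to 1 candidates were called, all of them without si-NC replicate 3. An unadjusted p under 0.05 was then reached by 2 to 10 candidates and by 5.15% to 13.9% of all entries tested. With array weights, which were 0.145 for si-NC replicate 3, 31 entries and 3 candidates were called (PC-3p-14533_73, PC-3p-11918_97 and PC-3p-16148_63) and 16 had an unadjusted p under 0.05, as did 22.7% of all entries. The median log2 change of tested candidates was then -0.34, against -0.35 to 0.70 with 1 library left out. The replicate number as a block gave 0 calls and 4 candidates with an unadjusted p under 0.05, against 9.54% of all entries. Deviations from the group means correlated at 0.045, 0.48 and 0.40 between libraries of the same number, for replicates 1, 2 and 3. Between libraries of different number the correlations ran from -0.45 to 0.19. The highest of those, 0.19, was between si-NC replicate 1 and si-circCpsf6 replicate 2, above the 0.045 of the replicate 1 libraries. Deviations sum to 0 over the libraries of a group, so a positive correlation brings a negative one elsewhere. Part of the contrast between same and different numbers was therefore fixed in advance. The correlations do not settle whether same-numbered libraries were paired, and the labels state no pairing. Opposite directions came from leaving out 1 library, with ranges of -0.63 to 0.17 for PC-5p-748_4516, -1.32 to 0.030 for PC-3p-798_4100, -1.003 to 2.16 for PC-5p-1723_1380, -0.28 to 0.90 for PC-5p-3070_648 and -0.29 to 0.60 for PC-3p-2350_929, which was also -0.34 with array weights. The cause was not tested. Setting values under 20 to 20 was chosen after seeing the data and called 0 entries. The lowest candidate value in si-NC replicate 3 was 10, but mouse entries were listed there down to 2, so 10 was not a limit for all entries.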
